A study of Homo sapiens with 6 samples.

Results

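The members described here are the small nucleolar RNA (snoRNA) genes on the array, chosen as every probe set whose only gene symbol was SNORA or SNORD followed by a number. There were 176 of them among 18377 genes tested, of which 61 were SNORA genes and the rest were SNORD genes. They came from 179 probe sets. For the 2 genes with more than 1 probe set, SNORA10 and SNORA15, the one with the highest mean was kept. A further 74 probe sets listed a snoRNA together with other symbols and were not used.

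The RNA came from MCF10A-HER2/3 cells, derived from the non-tumorigenic human mammary epithelial line MCF10A and named after the receptors HER2 and HER3. The cells carried inducible SHP2 miR1, SHP2 miR2 or CTRL miR, and each of these 3 groups had 2 arrays. SHP2 is the tyrosine phosphatase encoded by PTPN11, against which both SHP2 miRs are named. All 3 groups were grown for 15 days in three-dimensional culture, and all received doxycycline, refreshed every 2 days, so the inducer itself was shared with the controls. Whether each line was 1 clone, and whether replicates were separate cultures, is not given in the sources used here. The p-values therefore reflect how far the arrays of a group lay apart, and that distance may be purely technical. PTPN11 had log2 values of 6.04 and 5.71 on the SHP2 miR1 arrays and 6.90 and 7.28 on the SHP2 miR2 arrays, against 7.96 and 8.44 with CTRL miR, so the labels and the target gene point the same way. The 4 measured mammary basal epithelium markers had probe set means between 7.88 and 11.3, all above the dim bound of 4.76 used here. The 3 leukocyte markers had means between 3.33 and 7.06. Values of different probe sets are not on a common scale, so these levels are a description and not a comparison.

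snoRNAs are short nucleolar RNAs that guide enzymes to chosen positions of other RNAs, above all ribosomal RNA. H/ACA snoRNAs, the SNORA genes, pair with the pseudouridine synthase DKC1 together with GAR1, NHP2 and NOP10. C/D snoRNAs, the SNORD genes, pair with the methyltransferase FBL together with NOP56, NOP58 and SNU13, and direct methylation of the ribose. A few, such as the U14 family (SNORD14), also take part in cutting the ribosomal RNA precursor. Most human snoRNAs lie in introns of other genes and are trimmed out of the host's spliced introns. Of the 176 members, 174 lay within the span of another gene in the RefSeq table and 2, SNORD13 and SNORD32B, did not.

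Because a snoRNA is usually made from its host's transcript, members inside one host share a promoter. The starts of 3 hosts are shown, chosen after the values were seen, because every measured member inside GAS5 was lower on average with the SHP2 miRs and every one inside RPL13A and SNHG17 was higher. Of the other hosts with 3 or more members, TBRG4 also had all 3 above 0 (median 0.40) and NCL all 3 below 0 (median -0.08), with 0 calls in either, and their promoters are not shown. GAS5 holds 7 members, RPL13A 4 and SNHG17 3. Each sequence runs from 250 bases before the start of the gene to 50 bases after it, on the gene's own strand, from RefSeq on GRCh38.p14.
GAS5, chr1:173868996-173869295, minus strand: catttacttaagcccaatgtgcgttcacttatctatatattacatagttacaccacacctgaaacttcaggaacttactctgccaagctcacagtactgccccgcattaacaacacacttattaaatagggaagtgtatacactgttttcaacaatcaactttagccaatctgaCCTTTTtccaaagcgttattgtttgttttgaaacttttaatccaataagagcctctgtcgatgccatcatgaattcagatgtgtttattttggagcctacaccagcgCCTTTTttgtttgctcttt
RPL13A, chr19:49487358-49487657, plus strand: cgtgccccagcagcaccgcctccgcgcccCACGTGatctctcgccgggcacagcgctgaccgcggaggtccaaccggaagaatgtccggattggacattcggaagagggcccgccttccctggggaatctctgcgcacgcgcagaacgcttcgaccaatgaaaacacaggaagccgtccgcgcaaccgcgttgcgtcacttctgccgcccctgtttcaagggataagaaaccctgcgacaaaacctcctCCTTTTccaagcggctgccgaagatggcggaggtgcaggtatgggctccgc
SNHG17, chr20:38435279-38435578, minus strand: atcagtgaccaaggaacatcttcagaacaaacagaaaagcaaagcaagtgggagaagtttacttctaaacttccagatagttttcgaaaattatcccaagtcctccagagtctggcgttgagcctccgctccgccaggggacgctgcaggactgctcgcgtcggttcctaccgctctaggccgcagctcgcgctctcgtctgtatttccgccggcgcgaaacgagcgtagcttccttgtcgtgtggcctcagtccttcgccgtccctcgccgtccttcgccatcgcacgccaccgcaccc
Capitals mark 2 motifs, CACGTG, known as an E-box, and CCTTTT, the letters of a short pyrimidine run. Both strands were searched, and TATAAA was searched too and was in none of the 3 windows. CCTTTT was picked after reading these sequences and is in GAS5 and RPL13A, and in 20% of all 34796 promoters of the same length. CACGTG is in RPL13A and in 7.2% of promoters, and TATAAA is in 11.6%. GAS5 and RPL13A, whose members differed in opposite directions, thus share the pyrimidine run. A match is a description of letters only.

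On average over both SHP2 miRs, SNORA genes were higher and SNORD genes were split. Of 61 SNORA genes, 8 rose and 0 fell (13.1% called), and of the SNORD genes 2 rose and 4 fell (5.22% called). Over all 18377 genes 4.2% passed, 1.53% higher and 2.67% lower, so the SNORD share was near the background and the SNORA share was above it. The median difference was 0.22 (log2) over the SNORA genes and -0.01 over the SNORD genes, beside 0.02 over all genes. It was above 0 for 47 SNORA genes and below it for 14, and above 0 for 56 SNORD genes and below it for 59. All 4 SHP2 miR arrays lay above both controls for 21 SNORA and 18 SNORD genes and below both for 0 SNORA and 11 SNORD genes, against 12.6% of all genes above and 13.6% below. The difference between the classes was not itself tested.

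Calls are genes with an adjusted p under 0.05 in limma's moderated fit over all genes (Benjamini-Hochberg), and all adjusted p-values below come from that fit. At an unadjusted p under 0.05, 17 SNORA genes were higher and 1 lower, and 11 SNORD genes were higher and 16 lower. That is 29.5% of the SNORA genes and 23.5% of the SNORD genes, beside 20.9% of all genes, so the SNORD share was near the background. Fewer members passed with any 1 array left out, and fewest without a control. The same held over all genes, with only 1 array then left in a group, so this loss is not particular to the snoRNA genes. SNORA24, SNORA57, SNORA71C and SNORD35A no longer passed whichever array was left out. The medians over the SNORA genes with any 1 array left out ran from 0.16 to 0.31, and those over the SNORD genes from -0.06 to 0.05.

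**Figure D1:**
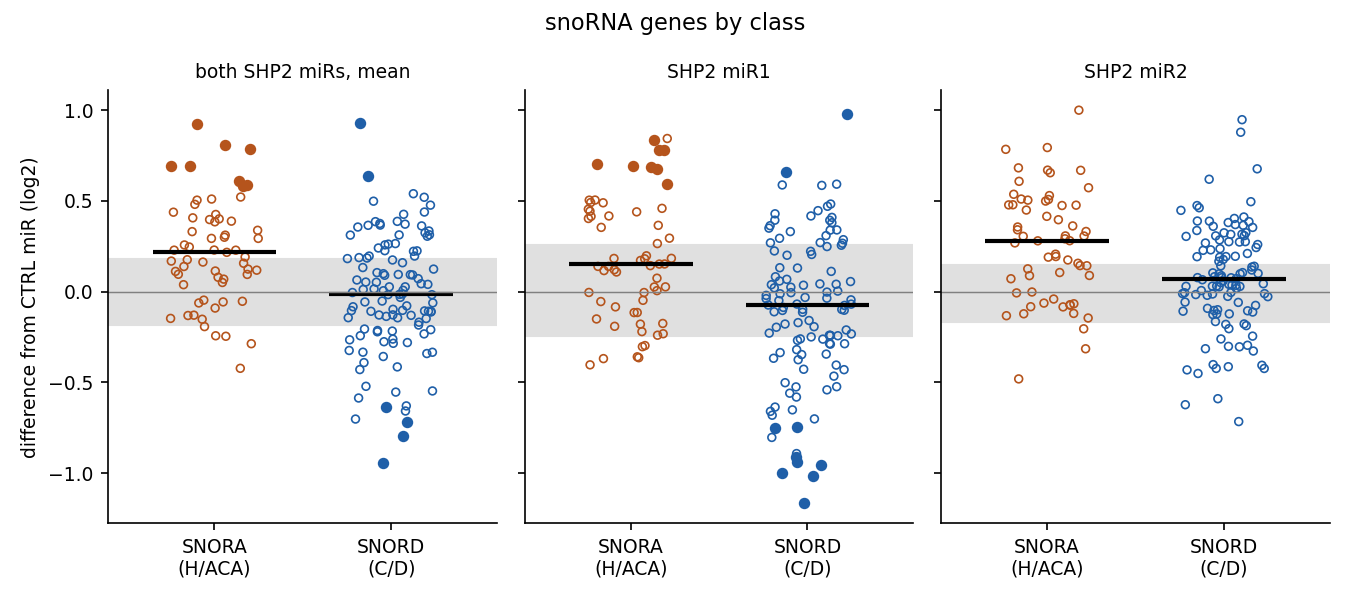
Difference from CTRL miR on the log2 scale for each SNORA and SNORD gene, in panels for the mean of both SHP2 miRs, SHP2 miR1 and SHP2 miR2. Filled points passed the threshold, black bars are class medians and the grey band spans the middle 50% of all genes. The SNORA median lies at 0.22, 0.15 and 0.28 in the panels from left to right, and the SNORD median at -0.01, -0.08 and 0.07.

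Among the SNORA genes, SNORA22 had the largest mean difference. Its values were 9.56 and 9.35 with SHP2 miR1, 9.91 and 9.31 with SHP2 miR2, against 8.41 and 8.81 with CTRL miR. It rose by 0.92 (SE 0.20, 1.89-fold, adjusted p = 0.0344), and the groups did not overlap, although the replicates of SHP2 miR2 lay further apart than those of most genes. SNORA68, the brightest SNORA gene, read 10.23 and 10.29 with SHP2 miR1, 10.29 and 10.12 with SHP2 miR2, and 9.51 and 9.34 with CTRL miR. It rose by 0.81 (SE 0.13, 1.75-fold, adjusted p = 0.012), and every SHP2 miR array was above both controls.

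SNORA71A, SNORA71C and SNORA71D are related copies inside the non-coding host SNHG17. SNORA71A read 9.47 and 9.48 with SHP2 miR1, 9.59 and 9.40 with SHP2 miR2, and 8.75 and 8.64 with CTRL miR, a rise of 0.79 (SE 0.13, 1.73-fold, adjusted p = 0.0124). SNORA71C read 10.01 on both SHP2 miR1 arrays and 9.87 and 9.84 with SHP2 miR2, against 9.31 and 9.32 with CTRL miR. It rose by 0.61 (SE 0.12, adjusted p = 0.0273), and its replicates lay close together in every group. SNORA71D had 8.95 on both SHP2 miR1 arrays and 8.89 and 8.72 with SHP2 miR2, against 8.47 and 8.24 with CTRL miR. Its difference of 0.52 did not pass (adjusted p = 0.0692) and is the nearest SNORA value outside the threshold, with SNORA57 just inside. With SHP2 miR1 alone it passed narrowly (0.59, adjusted p = 0.0496), so all 3 copies were called there, beside 2.66% of all genes called higher. Probes of such similar copies may bind each other's RNA, so the 3 are not independent readings.

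SNORA49, inside EP400, read 8.03 and 7.90 with SHP2 miR1, 8.06 and 7.82 with SHP2 miR2, against 7.38 and 7.14 with CTRL miR (difference 0.69, SE 0.14, adjusted p = 0.0316). SNORA37, inside MBD2, read 6.75 and 6.35 with SHP2 miR1, 6.43 and 6.32 with SHP2 miR2, against 5.67 and 5.86 with CTRL miR (difference 0.69, SE 0.15, adjusted p = 0.0401). In both genes the lowest SHP2 miR array was above the highest control. SNORA24, inside SNHG8, read 10.04 and 9.90 with SHP2 miR1, 9.82 and 9.77 with SHP2 miR2, against 9.33 and 9.26 with CTRL miR (difference 0.59, SE 0.13, adjusted p = 0.0366). SNORA57 rose by 0.58 (SE 0.13, adjusted p = 0.0468), with values of 8.97 and 9.04 with SHP2 miR1, 8.72 and 8.85 with SHP2 miR2, and 8.43 and 8.19 with CTRL miR. The SNORA57 call was lost with median centring, all probe sets tested, array weights or the replicate block. With all probe sets tested, the calls of SNORA22, SNORA24, SNORA37, SNORA49 and SNORA71C were lost too. That of SNORA37 was also lost with array weights. SNORA68 and SNORA71A kept theirs in every such alternative with all arrays. In all 8 SNORA genes that rose, the SHP2 miR arrays lay apart from the controls. They were called on these same arrays, so this separation is no further support. SNORA10, inside RPS2, and SNORA67, inside EIF4A1, had differences of 0.51 (adjusted p = 0.0927) and 0.48 (adjusted p = 0.125) and were also above both controls on all 4 arrays, but did not pass.

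**Figure D2:**
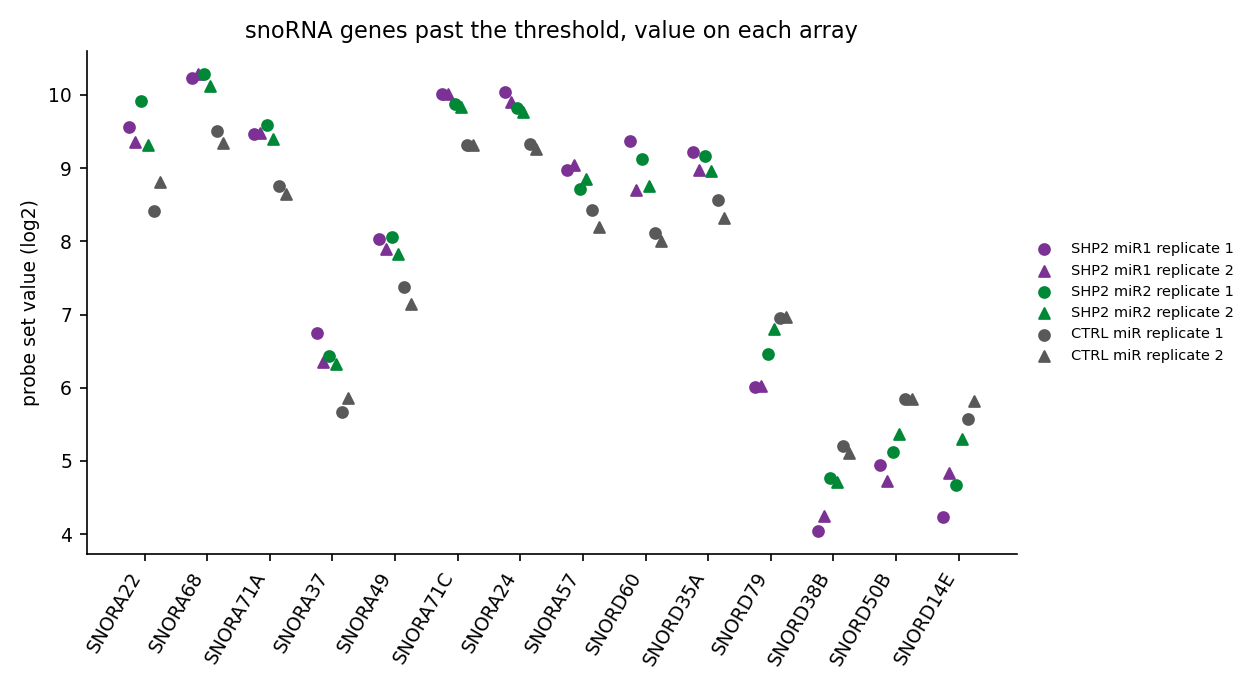
Log2 value on each of the 6 arrays for the 14 snoRNA genes past the threshold in the mean of both SHP2 miRs, with SNORA genes on the left and SNORD genes on the right. Purple is SHP2 miR1, green SHP2 miR2 and grey CTRL miR, and in none of the 14 genes do the SHP2 miR arrays overlap with the controls. The genes were chosen by their calls on these arrays, which favours such separation.

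Among the SNORD genes 2 rose, SNORD60 and SNORD35A, and both calls were lost with all probe sets tested or with array weights. SNORD60, inside SNHG19, read 9.37 and 8.70 with SHP2 miR1, 9.12 and 8.76 with SHP2 miR2, against 8.11 and 8.01 with CTRL miR. It rose by 0.93 (SE 0.20, 1.90-fold, adjusted p = 0.0353), the largest rise among the SNORD genes, with a wide gap between the SHP2 miR1 replicates. SNORD35A, inside RPL13A, read 9.22 and 8.98 with SHP2 miR1, 9.16 and 8.96 with SHP2 miR2, against 8.56 and 8.32 with CTRL miR, a rise of 0.64 (SE 0.15, 1.56-fold, adjusted p = 0.0456).

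The 4 SNORD genes that fell were dimmer. SNORD14E, a copy of the processing snoRNA U14 inside HSPA8, read 4.24 and 4.83 with SHP2 miR1, 4.67 and 5.30 with SHP2 miR2, against 5.58 and 5.82 with CTRL miR. It fell by 0.94 (SE 0.22, 1.92-fold, adjusted p = 0.0468), a call lost with all probe sets tested or with array weights. Its neighbour in the same host, SNORD14C, read 8.70 and 8.48 with SHP2 miR1, 8.52 and 8.50 with SHP2 miR2, and 8.37 on both CTRL miR arrays, a difference of 0.18 (adjusted p = 0.465). The pair thus lay on opposite sides of 0, and HSPA8 itself had a difference of -0.20 (adjusted p = 0.389). The third measured processing snoRNA, SNORD13, which has its own promoter and takes part in acetylation of ribosomal RNA, read 11.05 and 10.90 with SHP2 miR1, 10.95 and 10.76 with SHP2 miR2, and 10.60 and 10.56 with CTRL miR (difference 0.33, adjusted p = 0.198).

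SNORD50B, inside SNHG5, read 4.95 and 4.72 with SHP2 miR1, 5.12 and 5.37 with SHP2 miR2, against 5.84 on both CTRL miR arrays. SNORD50B and its partner SNORD50A guide ribosomal RNA methylation and have been described as RNAs that bind K-Ras, a member of the pathway downstream of SHP2. SNORD50B fell by 0.79 (SE 0.14, 1.73-fold, adjusted p = 0.0163). SNORD50A, in the same host, read 9.12 and 8.46 with SHP2 miR1, 8.53 and 8.62 with SHP2 miR2, and 8.66 and 8.33 with CTRL miR, groups that overlapped (difference 0.18, adjusted p = 0.63). SNORD38B read 4.04 and 4.25 with SHP2 miR1, 4.77 and 4.71 with SHP2 miR2, against 5.21 and 5.11 with CTRL miR, and fell by 0.72 (SE 0.13, adjusted p = 0.019). SNORD38B sat just under 4.76, the value below which a gene counts here as dim.

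Within GAS5, a growth-arrest transcript whose exons code for no protein, all 7 members were below 0 on average, with a median of -0.59. SNORD79 read 6.01 and 6.03 with SHP2 miR1, 6.46 and 6.80 with SHP2 miR2, against 6.95 and 6.97 with CTRL miR, and fell by 0.63 (SE 0.14, adjusted p = 0.0409). The SNORD79 call was lost with quantile normalization, cyclic loess or all probe sets tested. The other 6 did not pass in the mean of both SHP2 miRs. Of the GAS5 members, SNORD78 read 6.67 and 6.52 with SHP2 miR1, 6.91 and 7.59 with SHP2 miR2, against 7.61 and 7.40 with CTRL miR, so 1 SHP2 miR2 array lay among the controls. SNORD77, at the dim end, read 2.41 and 3.08 with SHP2 miR1, 3.17 and 3.32 with SHP2 miR2, against 3.49 and 3.90 with CTRL miR. Against CTRL miR, SHP2 miR1 gave a median of -0.89 over the GAS5 members with 3 lower (SNORD77, SNORD78 and SNORD79, beside 5.94% of all genes), and SHP2 miR2 a median of -0.26 with 0 passing. The level of GAS5 as a host was not measured by a probe set with 1 symbol.

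RPL13A is a ribosomal protein gene whose snoRNAs have been studied in the response of cells to lipid stress. Within it all 4 members were above both controls on all 4 SHP2 miR arrays, beside 12.6% of all genes. RPL13A was picked because its members were higher, so this count is no further support, and only SNORD35A passed. Besides SNORD35A, SNORD33 read 12.16 and 12.01 with SHP2 miR1, 12.03 and 11.87 with SHP2 miR2, against 11.78 and 11.74 with CTRL miR. SNORD33 was the brightest member of all, and its difference of 0.26 did not pass (adjusted p = 0.291). SNORD32A and SNORD34 had differences of 0.48 (adjusted p = 0.163) and 0.36 (adjusted p = 0.146). The members of a host share 1 transcript and are not replicates of each other.

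**Figure D3:**
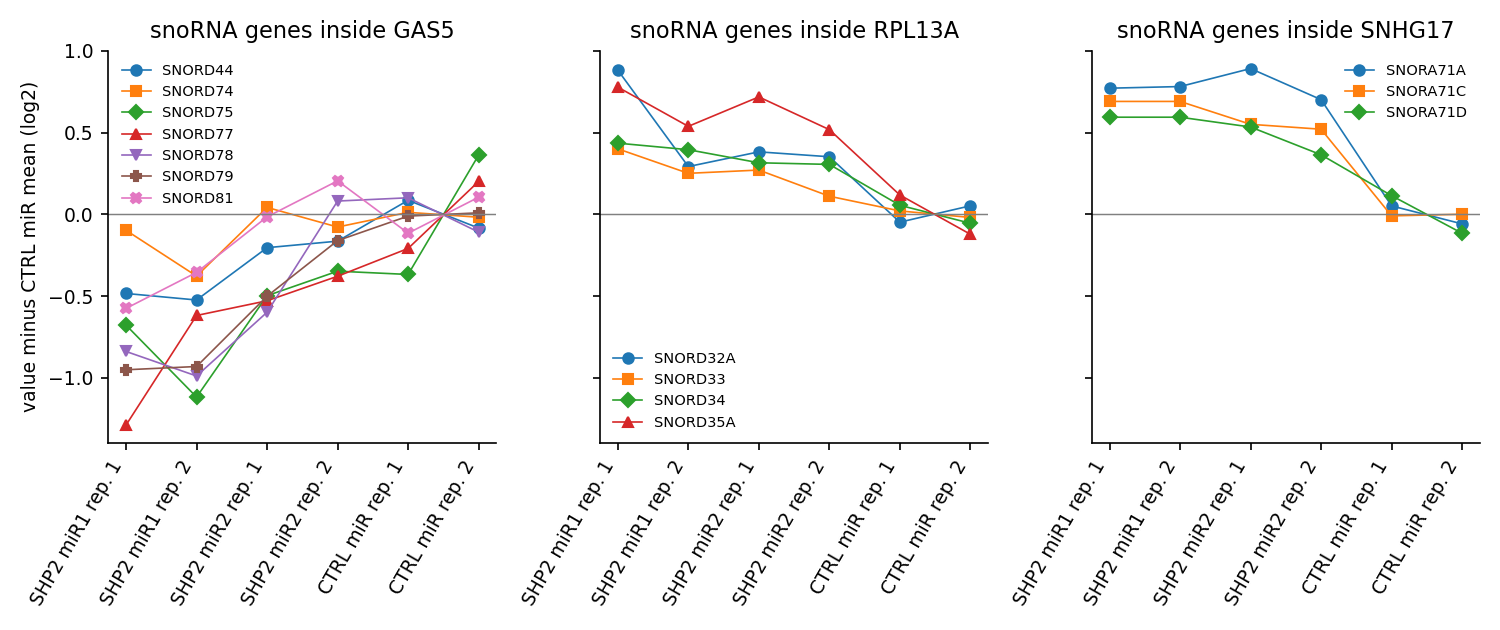
Log2 value minus the CTRL miR mean on each of the 6 arrays for the snoRNA genes inside GAS5, RPL13A and SNHG17, one line per gene. The GAS5 members lie mostly below 0 on the SHP2 miR1 arrays, and the RPL13A and SNHG17 members lie above 0 on all 4 SHP2 miR arrays. The hosts were chosen for the direction of their members, which favours this.

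Host genes that could be measured were set beside the snoRNAs inside them. A single-symbol host was found for 50 SNORA genes in 42 hosts and 35 SNORD genes in 25 hosts. Where the smallest enclosing gene had no such probe set, the next larger measured one stood in. For SNORA74A, for example, MATR3 was used in place of SNHG4, so some of these genes may not be the true host. Host and snoRNA had the same sign for 22 of the 50 SNORA genes and 15 of the 35 SNORD genes. The median host difference was -0.07 where the snoRNAs had a median of 0.22, and 0.01 beside -0.06 for the SNORD genes. Of the hosts 1 passed, beside 4.2% of all genes, so the scarcity of calls is not particular to hosts. It was RAB30, which rose by 0.64 (adjusted p = 0.0311) while SNORA70E inside it had a difference of -0.13. SNHG17 read 7.23 and 7.01 with SHP2 miR1, 7.30 and 7.15 with SHP2 miR2, against 6.92 and 7.04 with CTRL miR, a difference of 0.20 that did not pass (adjusted p = 0.449), smaller than those of its 3 snoRNAs. MBD2 and EP400 had -0.16 (adjusted p = 0.526) and -0.20 (adjusted p = 0.415). Probe sets lie over the snoRNA itself, so mature snoRNA and unspliced host precursor cannot be told apart.

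In both classes the brightest members were the ones most often higher with the SHP2 miRs. Of 12 SNORA genes with a mean of 8 or more, all 12 were above 0 and 6 rose, with a median of 0.55. Of 24 SNORD genes that bright, 20 were above 0 and 2 rose, with a median of 0.21. Over all genes at that level 880 of 2207 were above 0, with a median of -0.07 and 59 higher calls. Between the dim bound of 4.76 and 8 the classes parted: 26 of 30 SNORA genes were above 0, with a median of 0.23, against 11 of 37 SNORD genes, with a median of -0.15 and 3 lower calls. The dimmest bin held 19 SNORA genes with a median of -0.05 and 54 SNORD genes with a median of -0.02. All 6 SNORD genes that passed lay either at the bright end, where they rose, or below 7, where they fell.

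**Figure D4:**
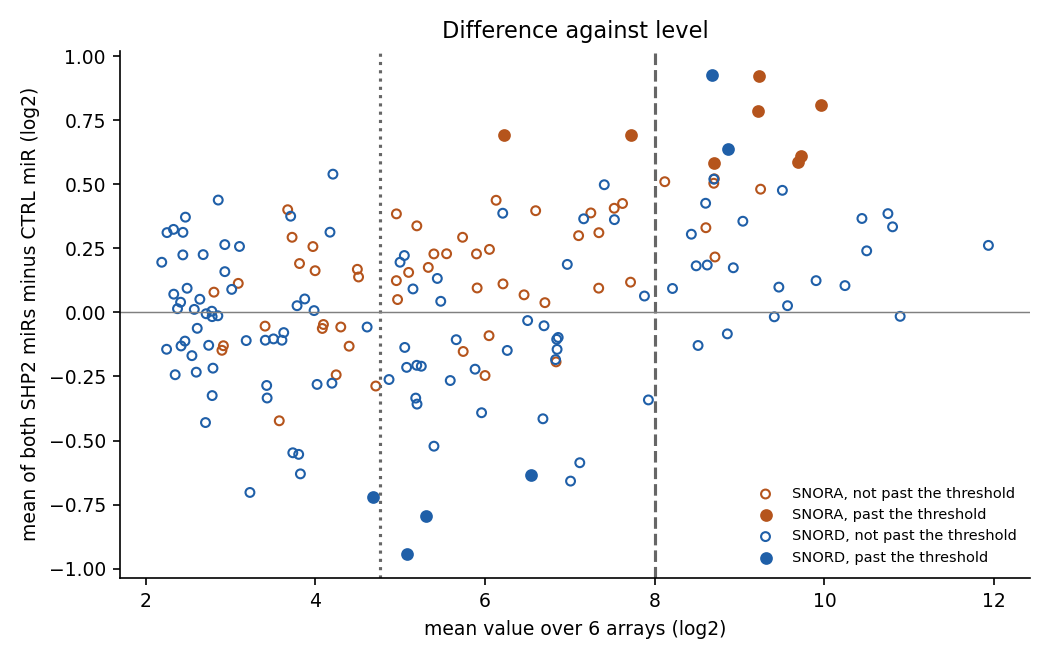
Mean of both SHP2 miRs minus CTRL miR (log2) against mean log2 value over 6 arrays for 176 snoRNA genes, in orange for SNORA and blue for SNORD, with filled points past the threshold. The dotted line marks the dim bound of 4.76 and the dashed line a level of 8. Of the 10 rises, 8 lie at a level of 8 or more, and the falls are SNORD genes below 7.

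The classes also differed in level. The median mean value was 5.91 for the SNORA genes, from 2.81 (SNORA19) to 9.96 (SNORA68), and 5.05 for the SNORD genes, from 2.19 (SNORD115-4) to 11.93 (SNORD33), beside 5.79 over all genes. The median replicate SD was 0.20 and 0.23, beside 0.17 over all genes. The other bright SNORD genes were SNORD116-15 at 10.89, SNORD13 at 10.80, SNORD45A at 10.75 and SNORD57 at 10.50, none of which passed. Values of different probe sets are not on a common scale, so these levels order the probes and not the RNAs.

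Taken singly, calls were made for SHP2 miR1 and not for SHP2 miR2, and the direct comparison of the SHP2 miRs follows. Both single comparisons use the same controls, so they are not independent. Against CTRL miR, SHP2 miR1 gave 8 higher and 0 lower SNORA genes (median 0.15) and 2 higher and 8 lower SNORD genes (median -0.08). Over all genes 8.6% passed for SHP2 miR1, 2.66% higher and 5.94% lower, so the SNORD shares were close to these. The 8 SNORA genes were those of the mean of both SHP2 miRs with SNORA71D in place of SNORA22, which just missed (adjusted p = 0.0513). The 8 lower SNORD genes were SNORD38B, SNORD50B, SNORD79, SNORD14E, SNORD77, SNORD52, SNORD78 and SNORD12C. SNORD38B had the smallest adjusted p, with a difference of -1.02 (SE 0.15, 2.02-fold lower, adjusted p = 0.00586). SNORD52 read 5.09 and 4.90 with SHP2 miR1, against 5.52 and 5.97 with CTRL miR, and SNORD12C read 4.69 on both SHP2 miR1 arrays, against 5.20 and 5.67 with CTRL miR. Fewer members in total passed for SHP2 miR1 with any 1 array left out, and fewest without CTRL miR replicate 2. The same held over all genes.

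With SHP2 miR2, 0 members passed in limma's fit, beside 0.37% of all genes. At an unadjusted p under 0.05, 17 SNORA genes, all higher, and 12 SNORD genes, 8 higher and 4 lower, differed from CTRL miR, beside 11% of all genes in either direction. The SNORA median was 0.28 and the SNORD median 0.07, beside -0.01 over all genes. SNORA22 had the largest difference, 0.999 (adjusted p = 0.124), and SNORA71A the smallest p, at 0.79 (adjusted p = 0.0726). Under a mean-variance trend in limma 10 members passed, all higher, beside 189 higher and 178 lower over all genes.

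No member differed between SHP2 miR2 and SHP2 miR1 past the threshold, beside 0.19% of all genes in limma's fit. The smallest adjusted p was 0.117, for SNORA7B at 0.69 and for SNORD12C and SNORD4A at 0.79 and 0.94. At an unadjusted p under 0.05, 8 SNORA genes (5 higher, 3 lower) and 21 SNORD genes (all higher) passed, against 17.7% of all genes. The direction of the SNORD genes ran with SHP2 miR2 above SHP2 miR1 for 77 and below it for 38, with a median of 0.17. SHP2 miR1 replicate 1 was above replicate 2 in 87 SNORD and 38 SNORA genes, so the SHP2 miR1 replicates themselves were offset by medians of 0.18 and 0.13. Per array, the SNORA median over the control mean was 0.35 and 0.13 with SHP2 miR1, 0.29 and 0.21 with SHP2 miR2. For the SNORD genes it was -0.01 and -0.20 with SHP2 miR1, 0.14 and 0.06 with SHP2 miR2.

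The imprinted clusters held many members. SNHG14, the host of the snoRNAs lost in Prader-Willi syndrome, holds 40 members, 20 SNORD115 and 20 SNORD116 copies. Of these, 0 passed in any comparison of limma's fit. In the mean of both SHP2 miRs 4.2% of all genes passed, so 0 of 40 is near the background. In that mean 5 (12.5%) had an unadjusted p under 0.05, beside 20.9% of all genes. The 20 SNORD115 copies, known mainly from brain, lay between 2.19 and 3.51, all under the dim bound. SNORD116-15 stood at 10.88 and 10.85 with SHP2 miR1, 10.89 and 10.93 with SHP2 miR2 and 10.91 and 10.89 with CTRL miR, near identical on every array. The 6 measured SNORD113 and SNORD114 copies inside MEG8 lay between 2.33 and 3.01, with 0 passing and 0 at an unadjusted p under 0.05. These 6 are too few to set against the shares over all genes. Copies within these families are similar, so some of their probe sets may read one another. The SNORD116 copies ranged from 2.71 (SNORD116-16) to 10.89 (SNORD116-15), and 11 of the 20 lay above the dim bound, so their probe sets did not all read alike. Left without these clusters, 69 SNORD genes had a median of -0.05 and the same 6 calls.

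SCARNA genes, the Cajal-body relatives that share the H/ACA or C/D fold, gave 0 calls among 16 in limma's fit, with 3 at an unadjusted p under 0.05 (18.8%, beside 20.9% of all genes) and a median of 0.19. Their smallest adjusted p was 0.0574, for SCARNA10. Of the 16, 13 (81.2%) were above 0, beside 77% of the SNORA genes and 52.8% of all genes. All 4 SHP2 miR arrays lay above both controls for 6 SCARNA genes and below both for 0, against 12.6% and 13.6% of all genes. The upward shift was thus not particular to the SNORA genes.

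Of the proteins that carry snoRNAs, 2 C/D and 4 H/ACA core proteins were measured. In the mean of both SHP2 miRs 0 of them passed, beside 4.2% of all genes. With so few genes, 0 calls is near the background and does not show that they stayed the same. FBL, the C/D methyltransferase, read 9.64 and 9.65 with SHP2 miR1, 9.75 and 9.78 with SHP2 miR2, and 9.36 and 9.28 with CTRL miR, above both controls on all arrays (difference 0.38, adjusted p = 0.128). NOP58 had -0.24 (adjusted p = 0.523). The H/ACA proteins DKC1, GAR1, NHP2 and NOP10 had -0.21, -0.26, 0.09 and 0.12, with adjusted p-values of 0.405, 0.373, 0.708 and 0.725. NOP56 and SNU13 had no probe set with 1 symbol.

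Among the wider lists, 0 of 14 snoRNP assembly and transport genes, 0 of 8 early processing genes and 0 of 12 trimming and decay genes passed on average. Over all genes 4.2% passed, so 0 calls in lists this short is near the background. At an unadjusted p under 0.05 there were 2, 3 and 5, or 14.3%, 37.5% and 41.7%, beside 20.9% of all genes. With SHP2 miR1 alone there was 1 call in each list, a share near the 8.6% of all genes: RPAP3, an assembly chaperone, fell by 0.88 (adjusted p = 0.0293), UTP15, a U3 processome subunit, by 0.90 (adjusted p = 0.0286) and DIS3, an exosome nuclease, by 0.82 (adjusted p = 0.0319). At an unadjusted p under 0.05 the shares with SHP2 miR1 were 21.4%, 37.5% and 66.7%, beside 28.1% of all genes. The last was 8 of the 12 trimming and decay genes, all lower, with a list median of -0.41. With SHP2 miR2, 1 of these 12 genes reached that level, beside 11% of all genes. Of the markers, 2 passed on average, beside 4.2% of all genes. KRT14, a basal keratin, rose by 1.10 (adjusted p = 0.0044) and PECAM1, an endothelial gene, by 0.60 (adjusted p = 0.0422). The 5 luminal, 4 fibroblast, 3 leukocyte and 2 adipocyte markers measured gave 0 calls on average. The other basal markers had differences of 0.38 (KRT5, adjusted p = 0.138), -0.02 (EGFR) and 0.003 (CDH1), and the other endothelial markers 0.06 (CDH5) and 0.02 (VWF), none of which passed. CDH5 and VWF were below 0 with SHP2 miR2, at -0.11 and -0.05. The leukocyte marker CD14 passed with SHP2 miR1 (1.08, adjusted p = 0.0366). The 3 endothelial markers averaged 4.64 to 4.97 per array with the SHP2 miRs and 4.47 and 4.65 with CTRL miR. The part of cell composition in the snoRNA values was not tested, and in these bulk samples fewer cells of a type and less RNA per cell cannot be told apart.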

How the data were processed

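The table deposited by the authors holds 1 processed value per probe set and array, taken here as log2 because of the range of the values. R 2.10 and oligo 1.8 were used, per the submitters' processing notes. How background was corrected and arrays were normalized, and the genome build, is not given in the sources used here. Each of 6 samples was labelled from 100 ng total RNA, per the labels' protocols. Gene names came from the platform annotation.

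Members, lists and tests were chosen with earlier results of these data known. Groups and replicate numbers came from the sample titles. A model with 3 groups was fitted to all 18377 genes with limma 3.58.1 in R 4.3.3 (eBayes, 3 residual and 6.10 prior degrees of freedom), two-sided, Benjamini-Hochberg adjusted over all genes. The number of arrays limits the precision.

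A gene is dim where its mean does not exceed the 40th percentile over probe sets. Hosts were taken from RefSeq gene spans of GRCh38.p14 without regard to strand, since the table gives none, although same-strand hosts were planned.

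Named snoRNA genes were up to 12 largest changes in each direction on average and 5 per other contrast, filled to 6 per class, with the 5 brightest per class, processing snoRNAs and those either side of the threshold. SNORD32A, SNORD34, SNORD50A, SNORD52, SNORD78, SNORD12C, SNORD4A, SNORA7B and SNORA70E were added after their values were seen. Alternatives were a mean-variance trend, a robust prior, a dim filter, quantile, median and cyclic loess normalization, averaged or all probe sets, array weights, only the groups compared, a replicate block and each array left out.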

Additional observations from a re-analysis of the deposited data

Results flagged for a closer look

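In 7 members both arrays of one SHP2 miR lay above both controls and both arrays of the other lay below them. The share of all genes with this pattern was not counted, so the 7 are given as values and not as a result about snoRNAs. SHP2 miR2 minus SHP2 miR1 was -0.58 for SNORA70D, whose values were 4.68 and 5.01 on the SHP2 miR1 arrays and 4.28 and 4.25 on the SHP2 miR2 arrays, against 4.38 and 4.39 with CTRL miR. In the other 6, SHP2 miR2 was the higher one. The difference was 0.75 for SNORD49A, 0.75 for SNORD59B, 0.68 for SNORD115-40, 0.58 for SNORD82, 0.54 for SNORD115-35 and 0.52 for SNORD116-21. SNORD49A, inside SNHG29, read 6.66 and 6.52 with SHP2 miR2 and 5.46 and 6.21 with SHP2 miR1, against 6.22 and 6.50 with CTRL miR. None of the 7 differences between the SHP2 miRs passed the threshold in limma's fit over all genes, with adjusted p-values between 0.127 for SNORD115-40 and 0.194 for SNORD82. All of them except SNORD49A and SNORD116-21 had means under the dim bound.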

How the results depend on the processing

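Counts of called members depended on the settings, and the cause was not tested. In the mean of both SHP2 miRs, 10 higher and 4 lower became 22 and 7 with a mean-variance trend. With all probe sets tested they became 2 and 2, and 6 were higher with array weights. Over all genes, 281 higher and 490 lower became 552 and 1241 with the trend. With all probe sets they became 174 and 275, and 242 were higher with array weights. For SHP2 miR1, 10 higher and 8 lower became 23 and 14 with the trend and 4 and 4 with all probe sets. Over all genes, 489 and 1092 became 809 and 1977 with the trend and 269 and 611 with all probe sets. The lower count of members was 13 without dim genes, 17 with median centring and 5 with only the groups compared. Over all genes it was 1487, 1536 and 906 in the same order. For SHP2 miR2, 10 were higher with the trend and 2 without dim genes, beside 189 and 82 over all genes. For SHP2 miR2 minus SHP2 miR1, the trend gave 2 higher and 1 lower, beside 321 and 125 over all genes. The replicate block gave 9 higher and 6 lower on average, beside 270 and 547 over all genes. For SHP2 miR1 it gave 10 higher and 9 lower, beside 497 and 1212. Same-numbered arrays deviated together only weakly, at correlations of 0.013, 0.067 and 0.140. Such correlations cannot show whether same-numbered samples were handled together.

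With each array left out, counts ran from 0 to 7 higher and 0 to 4 lower on average, from 0 to 9 higher and 1 to 9 lower for SHP2 miR1, and were 0 otherwise. The SNORA median ran from 0.16 to 0.31 on average, 0.13 to 0.35 for SHP2 miR1, 0.18 to 0.36 for SHP2 miR2 and -0.12 to 0.14 between the SHP2 miRs. The last was negative only without SHP2 miR1 replicate 2. The SNORD median ran from -0.06 to 0.05 on average, from -0.198 to -0.0132 for SHP2 miR1, from 0.0519 to 0.142 for SHP2 miR2 and from 0.0514 to 0.257 between the SHP2 miRs. The 24 genes named by rule kept their sign in the mean of both SHP2 miRs, as did the 10 differences followed for SHP2 miR1. Single genes for SHP2 miR2, and genes named after their values were seen, were not followed.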
